A study of Mus musculus with 8 samples.

Results

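The immediate early transcription factors are 10 genes, Fos, Fosb, Fosl1, Fosl2, Jun, Junb, Jund, Egr1, Egr2 and Ier2. They were taken from the array by gene name, which gave 16 probes among the 56605 probes of the array and 10 names among 37074. Their expression was measured in proliferating C2C12 cells, a line of mouse myoblasts that is used as a model of skeletal muscle in culture. In the Pvt1 silenced group, 4 cultures were transfected with Lipofectamine 2000 and LNA GapmeRs against Pvt1, listed as Pvt1_1 and Pvt1_3. GapmeRs are short modified DNA strands that bind a complementary RNA and have it cut by RNase H. In the negative control group, 4 cultures received Lipofectamine 2000 and negative control GapmeRs, so transfection and GapmeRs were common to both groups. All cells were at passage 10 of 1 line. The labels do not separate the silenced cultures by GapmeR, so the effect of each cannot be told apart. The comparison asked which of these factors differed in RNA level after Pvt1 down-regulation.

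The GapmeRs are shown because they define the groups, each 16 bases long.
Pvt1_1: accgtagtagagttaa
Pvt1_3: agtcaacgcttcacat

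Immediate early genes are transcribed within minutes of a growth or stress signal, from factors that already sit at their promoters, and their RNAs are short-lived. Proteins of the Fos family pair with proteins of the Jun family to form AP-1, a dimer that binds DNA at AP-1 sites, and Jun proteins can also pair with each other. The pathway is known in myoblasts for its link to serum and growth factor signals, which keep these cells dividing. Egr1 and Egr2 are zinc finger factors that bind GC-rich sites, and Ier2 encodes a small nuclear protein induced together with Fos.

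Arrays were compared by log2 processed signal after quantile normalization, the difference between groups was fitted with limma, and a probe was called at an adjusted p under 0.05. Between 51.6% and 62.5% of spots per array were positive and significant. Silenced replicate 4 had the lowest share, against 58.8% or more on the other 7 arrays. Control replicate 3 stood apart, with a mean r of 0.96 to its group, and for each remaining array that value was 0.98 or more. The silenced RNA itself was lower on every silenced array. The brightest Pvt1 probe had 9.86 ± 0.30 (SD, n = 4) in controls and 7.0 ± 0.63 (SD, n = 4) after silencing, a change of -2.86 (limma adjusted p 0.000682). Of all 28649 probes tested, 1373 were called higher and 5269 lower, so that 79.3% of calls were lower, with a median change of -0.19. Under cyclic loess 5416 were higher and 5258 lower (49.3% lower, median 0.02), and in the normalized values of the authors 4509 and 4461 of 45741 (49.7% lower). When dim spots were kept the counts were 4990 and 4787 of 56600 (49.0% lower), and when silenced replicate 4 was left out 3654 and 5104 (58.3% lower). Across these settings the higher count moved more than the lower one. The slide held its arrays in 2 rows, with 3 controls and 1 silenced array in row 1 and 1 control and 3 silenced arrays in row 2, so that row and group nearly coincided. In bulk RNA, fewer cells of a type and less RNA per cell cannot be told apart.

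Fosl1 was the only member called, and it fell. Of the 13 member probes that could be tested, 1 was called lower and 0 higher. The background was 18.4% of all probes called lower and 4.79% called higher. By brightest probe, 1 of 10 member genes was called lower and 0 higher, against 13.2% and 6.59% of 15444 genes. At an unadjusted p under 0.05, 2 member probes were higher and 4 lower by limma, where 9.34% and 27% of all probes were. By the methods' t-test 2 were higher and 2 lower, where 7.79% and 23.7% of all probes were. Under cyclic loess 3 member genes were called higher, Fos, Jun and Junb, and Fosl1 was called lower, where 24.4% of all genes were called higher and 13.5% lower. The member counts were thus close to the background under both scalings. The groups did not overlap for 4 member probes, with Jun higher and with Fosl1, Fosb and Jund lower after silencing. In the background, 5.61% of probes were without overlap and higher, and 22.6% without overlap and lower. The remaining 3 probes, of Fosb, Junb and Ier2, had too few values to test.

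**Figure D1:**
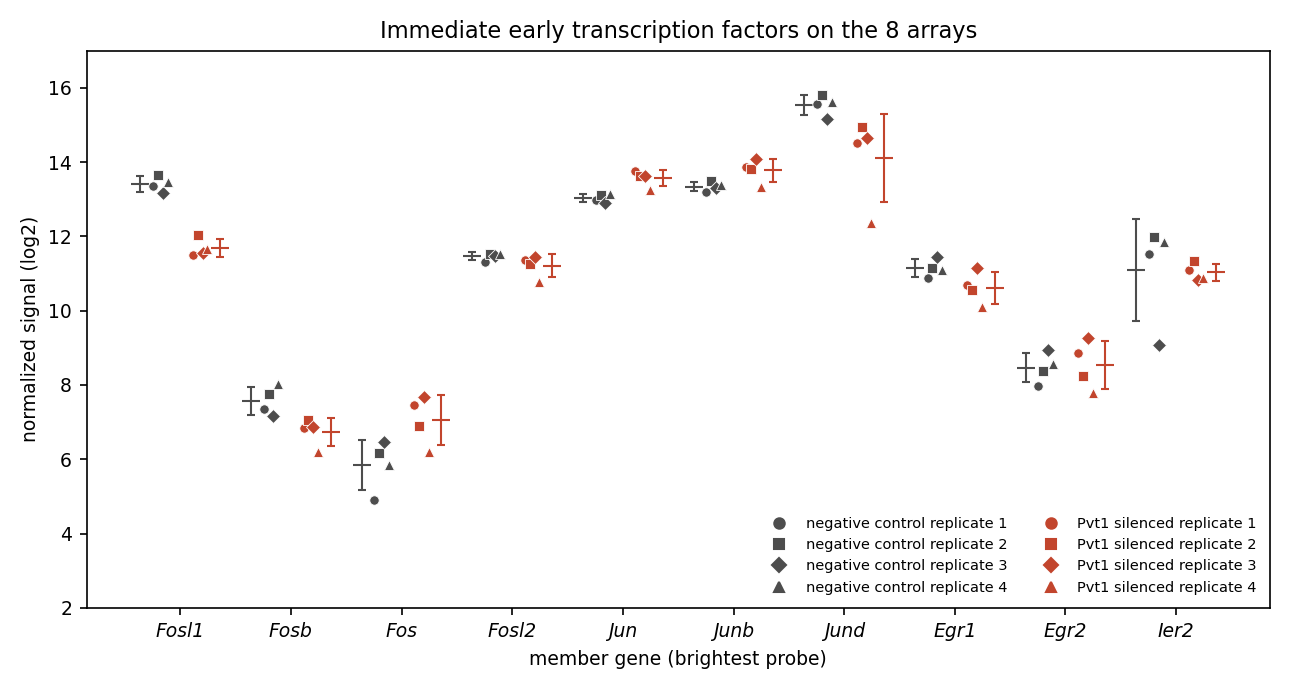
Normalized log2 signal (vertical axis) of the brightest probe of each member gene (horizontal axis) on each array, grey for negative control and red for Pvt1 silenced, with marker shapes for replicates 1 to 4 and bars for mean ± SD (n = 4). Fosl1 lay between 13.16 and 13.66 in controls and between 11.50 and 12.03 after silencing, Jund was lowest on silenced replicate 4, and Ier2 was lowest on control replicate 3.

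Fosl1 encodes Fra-1, a Fos family protein without a strong activating region that is itself a target of AP-1 and of growth factor signalling. Its probe, A_51_P308796, read 13.37, 13.66, 13.16 and 13.46 on control arrays 1 to 4. On silenced arrays 1 to 4 it read 11.50, 12.03, 11.56 and 11.65. All silenced values were therefore below all control values, and the lowest control value exceeded the highest silenced value. The group means were 13.41 ± 0.21 and 11.69 ± 0.24 (SD, n = 4 each). The change was -1.73 (SE 0.21, limma adjusted p 0.000874), with a 95% interval from -2.19 to -1.26, or 3.31-fold lower after silencing. An exact two-sided permutation test gave 0.0286, the smallest p that 4 against 4 arrays allow. Relative to the median of all probes the change was -1.53, and 3.53% of probes had a lower one. It was called under all 22 alternatives, with changes between -1.83 and -1.55. Within row 1 of the slide the difference was -1.90 and within row 2 it was -1.71, and with the row as a block the change was -1.80 (limma adjusted p 0.00717).

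The probe stretches below are those behind the values that the account turns on, the first 30 of 60 bases, 5′ to 3′ as the files give them, with positions on mouse build mm9. Whether they lie in a coding part or elsewhere in the transcript was not analysed here.
Fosl1 A_51_P308796, chr19:5455496-5455555: ctagagctggcctatcataatttgcacaaa
Jun A_55_P2158990, chr4:94716928-94716987: atgctaacgcagcagttgcaaacgttttga
Junb A_55_P2011106, chr8:87501881-87501940: agggctttgcggacggttttgtcaaagccc
Junb A_51_P159194, chr8:87500843-87500902: ttcgtgtctaaagtctattttaagatgtgt
Jund A_55_P2892246, chr8:73224302-73224361: tgcgtgttgagtgtgtgtttccttgtgttg
Jund A_51_P357744, chr8:73224436-73224495: ttttgctacgagtccacattcctgttccgt

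Fos, the founding member of the family, pointed the other way from Fosl1 but was not called. Its only probe (A_55_P2910184, chr12:86818118-86818177) was dim. It was well above background on 2 of 4 control and 3 of 4 silenced arrays. The control values were 4.91, 6.17, 6.45 and 5.86, and the silenced values 7.47, 6.90, 7.68 and 6.19. Silenced replicate 4 was the lowest of its group and lay below control replicate 3, so the groups overlapped. The change was 1.21 (SE 0.41, limma adjusted p 0.057), with a 95% interval from 0.30 to 2.12. Fos was called higher under cyclic loess (1.56), without silenced replicate 4 (1.50) and without control replicate 3 (1.41). Its lowest value under any alternative was 0.57, with normexp.

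Fosb encodes a close relative of Fos that is induced with similar kinetics. Its brighter probe (A_55_P2113051, chr7:19888168-19888227) read 7.36, 7.75, 7.16 and 8.02 in controls. After silencing it read 6.86, 7.06, 6.87 and 6.18, all below the controls. The change was -0.83 (SE 0.27, limma adjusted p 0.0518), just outside the threshold, with an exact two-sided permutation p of 0.0286. It was called without control replicate 3 (-0.97), and under cyclic loess it was -0.48 and not called. The other Fosb probe, 1978 bases nearer the 5′ end, was not positive and significant on any array.

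Fosl2 encodes Fra-2, a Fos family protein that, like Fra-1, needs a Jun partner to bind DNA. Its brighter probe (A_55_P2803815, chr5:32460076-32460135) read 11.30, 11.53, 11.48 and 11.54 in controls and 11.38, 11.26, 11.45 and 10.78 after silencing. The groups overlapped, and the change of -0.25 (95% interval from -0.71 to 0.22, limma adjusted p 0.436) lay close to the median of all probes. A dim probe 4988 bases nearer the 5′ end changed by -0.90 (limma adjusted p 0.249). That probe was well above background on 3 control arrays and 1 silenced array. Without silenced replicate 4 its change was -0.38 and that of the brighter probe -0.10, and with normexp the dim probe changed by -0.29.

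**Figure D2:**
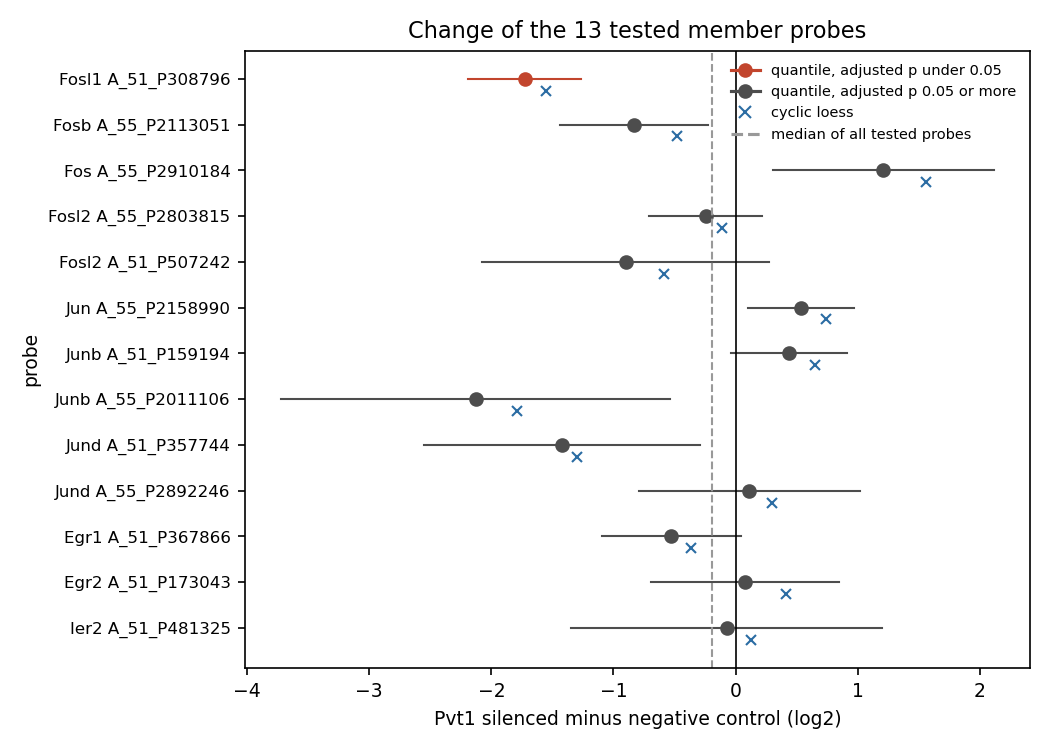
Difference between Pvt1 silenced and negative control arrays (log2, horizontal axis) for the 13 tested member probes (vertical axis), with dots and 95% limma intervals from quantile normalized values and crosses for cyclic loess. Red marks an adjusted p under 0.05, which Fosl1 alone reached at -1.73, and the dashed line is the median of all tested probes at -0.19.

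Among the Jun family, Jun and the brightest Junb probe read higher and the brightest Jund probe lower after silencing, none of them called. Jun encodes the main activating partner of Fos proteins. Its single probe read 12.98, 13.11, 12.90 and 13.14 in controls. The silenced values were 13.78, 13.62, 13.63 and 13.26, without overlap (exact two-sided permutation p 0.0286). The change was 0.54 (SE 0.19, limma adjusted p 0.0722), with a 95% interval from 0.11 to 0.97. Silenced replicate 4 was the lowest of its group. Without it Jun was called (0.63), as it was under cyclic loess (0.74) and with the authors' series table (0.69).

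Junb encodes a Jun protein with weaker activity that can oppose Jun at some promoters. Its brightest probe, A_51_P159194, read 13.20, 13.48, 13.30 and 13.37 in controls and 13.87, 13.83, 14.08 and 13.34 after silencing. On 3 silenced arrays the value was above all controls, while silenced replicate 4 lay within them. The change was 0.44 (SE 0.21, limma adjusted p 0.165), with a 95% interval from -0.03 to 0.91. It was called under 6 of 22 alternatives, among them cyclic loess (0.65) and without silenced replicate 4 (0.58).

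A probe of Junb 1038 bases nearer the 5′ end, A_55_P2011106, differed in the opposite direction. It read 8.12, 8.83, 5.17 and 8.65 in controls and 5.14, 6.19, 5.57 and 5.36 after silencing. Control replicate 3 was as low as the silenced arrays. The probe was well above background on 3 control arrays and on no silenced array. That gave a control mean at least 2.81-fold higher. For this bound each silenced value was raised to the lowest value well above background on its array if it lay under that. The control mean was used as it stood. The groups overlapped (exact two-sided permutation p 0.114). The fitted change was -2.13 (limma adjusted p 0.0571), -1.24 with normexp, and -2.96 with a call without control replicate 3. Since the silenced values and that of control replicate 3 were not well above background, these fitted sizes depend on the signal of dim spots. Another Junb probe, 4208 bases beyond the brightest on the 3′ side, where the whole gene spans 1840 bases in GRCm38.p6, was not positive and significant on any array.

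Jund encodes the Jun protein that many resting cells make without a stimulus. Its brightest probe, A_51_P357744, read 15.58, 15.80, 15.16 and 15.62 in controls and 14.51, 14.95, 14.65 and 12.36 after silencing. There was no overlap between groups, and silenced replicate 4 lay far below the other 3. The change was -1.42 (SE 0.51, limma adjusted p 0.0698), and without silenced replicate 4 it was -0.87 and was called. The neighbouring probe, A_55_P2892246, starts only 134 bases nearer the 5′ end. It read 14.27, 14.74, 12.75 and 14.63 in controls and 14.17, 14.30, 14.39 and 13.99 after silencing, a change of 0.11 (limma adjusted p 0.872). Here control replicate 3 was the low array, and without it the change was -0.34 and not called. So the low array at each Jund probe was a different one, and the 2 probes gave opposite signs in the fit.

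**Figure D3:**
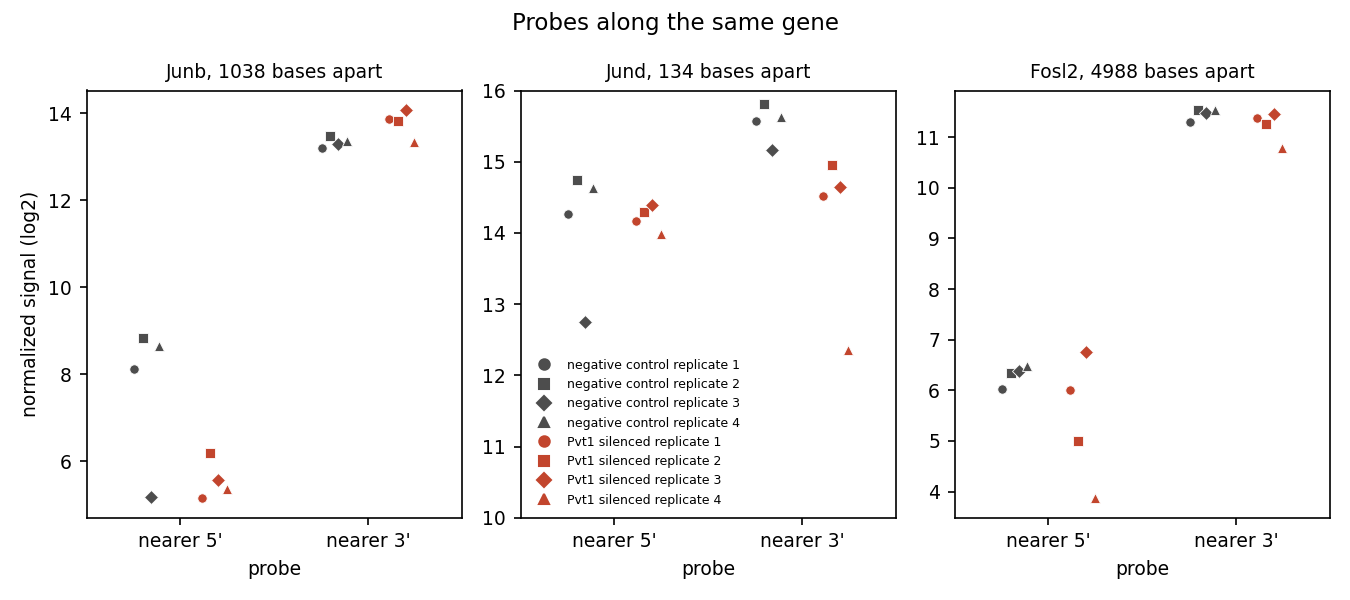
Normalized log2 signal (vertical axes, scaled per panel) on each array for pairs of probes along Junb, Jund and Fosl2, the one nearer the 5′ end on the left of each panel, grey for negative control and red for Pvt1 silenced, marker shapes for replicates 1 to 4. For Junb the 5′ probe lay between 5.14 and 6.19 after silencing while 3 of 4 controls were at 8.12 or more, and at the 3′ probe 3 of 4 silenced arrays were above the controls.

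Relative to Fosl1, the probe of Jun and the brightest probe of Junb shifted between the groups. The difference Jun minus Fosl1, taken within each array, was 2.26 larger in the silenced group mean, and 2.33 larger when taken from the processed signals without scaling between arrays. Every silenced array lay above every control array in that difference. For the brightest Junb probe minus Fosl1 the shift was 2.17, or 2.26 without scaling, again without overlap, and it does not hold for the 5′ Junb probe, whose fitted change was -2.13. The brightest Junb probe minus Jun shifted by -0.10, or by -0.072 without scaling, and the groups overlapped. Such differences show unequal change and not which of the genes changed. The pairs were chosen after the values were seen and were not tested.

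Egr1, a zinc finger factor that rises with serum and with stretch of muscle, read 10.87, 11.16, 11.46 and 11.10 in controls and 10.68, 10.57, 11.15 and 10.09 after silencing (A_51_P367866, chr18:35024395-35024454). The groups overlapped, and the change of -0.52 (SE 0.26, 95% interval from -1.10 to 0.05, limma adjusted p 0.170) was not called under any alternative. Egr2, a related factor known from Schwann cells and hindbrain, read 7.98, 8.38, 8.93 and 8.57 in controls. After silencing it read 8.87, 8.24, 9.27 and 7.79 (A_51_P173043, chr10:67004758-67004817). That was a change of 0.08, with a 95% interval from -0.69 to 0.84, whose sign depended on the scaling and on the arrays included. For Egr1 and Egr2 alike silenced replicate 4 was the lowest of the silenced arrays and control replicate 3 the highest of the controls.

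Ier2 differed in 1 control array. Its brightest probe (A_51_P481325, whose coordinates chr8:87185211-87185245 cover part of it) read 11.53, 11.99, 9.07 and 11.85 in controls and 11.09, 11.33, 10.82 and 10.89 after silencing. With all arrays the change was -0.07 (95% interval from -1.35 to 1.20). Without control replicate 3, which lay more than 2 log2 units below the other controls, the change was -0.75 and Ier2 was called lower. The other Ier2 probe starts 1588 bases further on the 3′ side, against 1522 bases for the whole gene in GRCm38.p6. It was dim, read 4.66, 5.52, 5.54 and 6.25 in controls and 4.45 on silenced replicate 1, and was masked on the other silenced arrays.

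**Figure D4:**
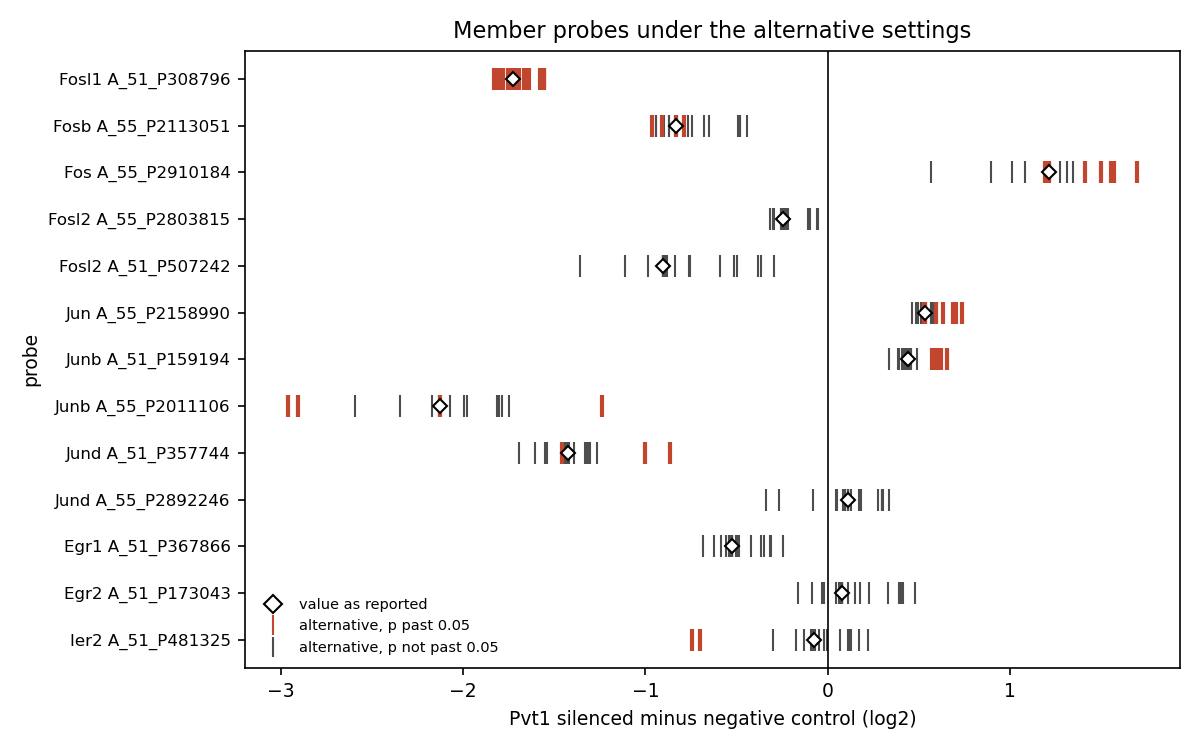
Difference between Pvt1 silenced and negative control arrays (log2, horizontal axis) for each tested member probe (vertical axis) as reported (diamonds) and under each alternative setting (ticks, red where p was under 0.05, unadjusted for 1 setting). Fosl1 stayed between -1.83 and -1.55 and was called throughout, Jun and the brightest Junb probe stayed above 0, and Egr2, Ier2 and the 5′ probe of Jund lay on both sides of 0.

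Among 27 genes that carry signals to these promoters, kinases, serum response factors and cofactors, 8 were called lower and 1 higher, where 13.2% of all genes were called lower and 6.59% higher. The median change was -0.43, against -0.05 over all genes. Under cyclic loess 8 were lower and 4 higher, against 13.5% and 24.4% of all genes, and the medians were -0.22 and 0.15. With the slide row as a block 3 were lower, Mapk3, Elk4 and Crebbp, and 5.52% of all genes. With single arrays left out the lower count was 4 to 8, with 4 without control replicate 2 or 4 or silenced replicate 1 or 3, while 7.40% to 14.4% of all genes were lower. Mapk3, the kinase ERK1, fell by 1.37 on the log2 scale (limma adjusted p 0.00372), from 13.30 ± 0.26 to 11.94 ± 0.33 (SD, n = 4 each). Elk4, a partner of serum response factor, fell by 1.39, a call lost by the methods' t-test with Benjamini-Hochberg adjustment (adjusted p 0.0564). Crebbp, a histone acetyltransferase recruited by AP-1 and CREB, fell by 1.31. Other probes of Crebbp and Elk4 also fell, though the Elk4 probe and a Crebbp probe were well above background on no silenced array. Map2k1, Map2k2, Map2k7, Rps6ka4 and Srf were the other genes called lower, with changes between -1.04 and -0.71. Other probes of Map2k1 (-1.54), Map2k2 (-2.46) and Map2k7 (-2.60 and -0.65) were called lower as well. The probes at -2.46 and -2.60 were well above background on 4 control arrays and no silenced array. The sizes of those falls depend on the signal of dim spots. By the brightest probe, the slide row as a block ended all 5 calls. The replicate block ended those of Map2k2, Map2k7 and Srf. In the normalized values of the authors Map2k1 and Map2k7 lost theirs (-0.76 and -0.58). Without the mask Map2k1, Map2k2 and Map2k7 did (-0.75, -0.57 and -0.56). By the methods' t-test with Benjamini-Hochberg adjustment Map2k1, Map2k7, Rps6ka4 and Srf did. With single arrays left out, Map2k1 lost its call without control replicate 1, 2 or 4 or silenced replicate 1 or 3 (-0.92 to -0.74). Map2k2 lost it without control replicate 2, 3 or 4 or silenced replicate 1 or 3 (-0.80 to -0.64), and Map2k7 without these or silenced replicate 2 (-0.78 to -0.57). Srf lost it without any 1 of the controls (-0.78 to -0.67) and kept it without silenced replicate 4. Without silenced replicate 1, 2 or 3 Srf had too few values to test. Rps6ka1, which encodes the ERK-activated kinase RSK1, rose by 1.56 (limma adjusted p 0.00816). A dimmer probe of Rps6ka1 changed by -0.58 and was not called. That probe was well above background on 1 control array and no silenced array, so its change is limited by its signal.

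Among 15 other AP-1 and Maf proteins, 11 could be tested, and 4 fell and 0 rose. Of all genes, 13.2% were called lower and 6.59% higher. The counts were 4 and 0 as well at an unadjusted p under 0.05 by limma, where 20.2% of all genes were lower and 12.5% higher, and by the methods' t-test (18.6% and 11%). Under cyclic loess they were also 4 and 0 (13.5% and 24.4%). Atf3, a stress-induced partner of Jun, fell by 1.26 on the log2 scale, from 11.39 ± 0.27 to 10.13 ± 0.19 (SD, n = 4 each). Atf7 fell by 1.89, Mafa fell by 1.72 and Mafk fell by 1.40. Another Atf7 probe fell by 2.27, and the remaining one changed by -0.25 and was not called. The list's median was -0.33.

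Of 39 other immediate early genes tested, 8 fell and 2 rose, with a median of -0.04, near that of all genes, where 13.2% were lower and 6.59% higher. Ccn2 and Ccn1, which encode secreted matrix proteins induced by serum and stretch, changed by -2.04 (limma adjusted p 0.000475) and -1.40. Plk3, a stress-responsive kinase, fell by 0.98, and Zfp36, which encodes an RNA-binding protein that speeds decay of AU-rich RNAs, fell by 0.78. With the slide row blocked, both lost their calls (-0.95 and -0.75). The call of Zfp36 was also lost without control replicate 1, 2 or 4 (changes of -0.84, -0.74 and -0.71) or silenced replicate 3 (-0.74). Ier5l, a relative of Ier2, rose by 1.11 (limma adjusted p 0.00425), from 12.18 ± 0.15 to 13.29 ± 0.22 (SD, n = 4 each). The others called were Ppp1r15a, Csrnp1, Id2 and Id3, lower, and Errfi1, higher, and blocking on the slide row ended all 5 calls. The other Id2 probe was called lower (-1.83), and the other Errfi1 probe changed by -0.30 and was not called. That block left 2 genes lower and 1 higher, where 5.52% and 2.53% of all genes were. With single arrays left out 3 to 9 were lower, with 3 without control replicate 4, 4 without control replicate 2 and 5 without control replicate 1 or silenced replicate 1 or 3. Between 1 and 5 were higher, with 5 without silenced replicate 4 and 1 without control replicate 2 or silenced replicate 1. Over these settings 7.40% to 14.4% of all genes were lower and 3.29% to 17.1% higher. Cyclic loess gave 10 lower and 7 higher, against 13.5% and 24.4% of all genes.

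Among inhibitors that are themselves induced by the pathway and act back on it, the genes called were higher. Of 17 tested, 3 rose and 0 fell, with a median of 0.30, where 6.59% of all genes were higher and 13.2% lower. Under cyclic loess 6 rose and 0 fell, against 24.4% and 13.5% of all genes and a median of 0.15 over them. Without silenced replicate 4 the counts were also 6 and 0, against 17.1% and 13% of all genes. At an unadjusted p under 0.05, 4 were higher and 0 lower by limma (12.5% and 20.2% of all genes), and 3 and 1 by the methods' t-test (11% and 18.6%). Dusp6, the phosphatase that removes activating phosphates from ERK, rose by 1.76 on the log2 scale (limma adjusted p 0.00162), from 11.76 ± 0.31 to 13.51 ± 0.35 (SD, n = 4 each). Spry1, an inhibitor of receptor tyrosine kinase signals, rose by 1.84, from 7.90 ± 0.40 to 9.74 ± 0.33 (SD, n = 4 each). Its relative Spry4 rose by 1.33 (limma adjusted p 0.0126), on a probe well above background on 1 control array and all 4 silenced arrays. Its change was 0.66 with normexp, and by the methods' t-test with Benjamini-Hochberg adjustment the call was lost (adjusted p 0.0633). For these 3 genes no silenced value overlapped a control value.

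**Figure D5:**
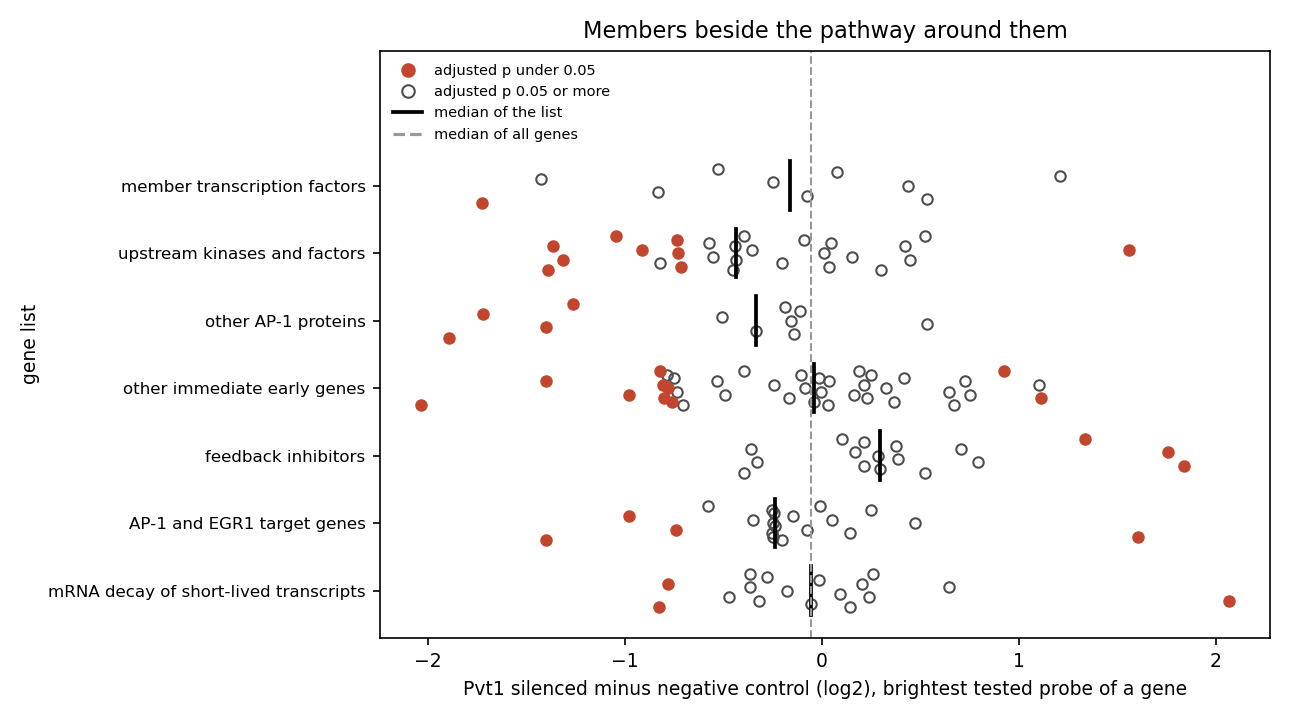
Difference between Pvt1 silenced and negative control arrays (log2, horizontal axis) for each tested gene of 7 lists (vertical axis), by its brightest probe, filled red where the adjusted p was under 0.05, with a black bar at each list's median and a dashed line at the median of all genes (-0.05). The feedback inhibitors had a median of 0.30 and 3 filled points above 0, and the upstream kinases and factors had a median of -0.43.

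Of 20 tested genes known to be driven by AP-1 or EGR1, 3 fell and 1 rose, shares near those of all genes (13.2% lower and 6.59% higher). Their median was -0.24, and -0.02 under cyclic loess. Tgfb1, the growth factor, fell by 1.40 on the log2 scale. Plaur, the urokinase receptor, fell by 0.98, and Vegfa, the endothelial growth factor, fell by 0.74. Vegfa lost its call without control replicate 1, 2 or 4 (-0.77, -0.69 and -0.70) and without silenced replicate 1 or 3 (-0.77 and -0.66), and with the replicate block or the slide row as a block. Of its other probes, 2 were called lower (-1.44 and -0.88), well above background on all arrays, and a dimmer one changed by -0.37. Sphk1, which makes sphingosine-1-phosphate, rose by 1.61 (limma adjusted p 0.00188).

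Of 17 genes that decay short-lived transcripts, 2 fell and 1 rose, with a median of -0.05, again near the shares of all genes. None of the 3 kept its call when the slide row was a block. Besides Zfp36, Hnrnpd, which encodes the AU-rich element binding protein AUF1, fell by 0.83, a call lost without control replicate 2 or 4 (-0.74 and -0.78) and with the replicate block. Its other probe, well above background on all arrays, changed by -0.66 and was not called. Tob1, an adaptor of deadenylases, rose by 2.07, but its control values had an SD of 1.49. Without control replicate 3 its change was 1.32, and the call was lost without control replicate 1 (2.18) or silenced replicate 1, 2 or 3 (2.03, 1.96 and 2.11), and by the methods' t-test.

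The cells had the markers of myoblasts. Myod1, Des, Cdh15 and Pax7 were well above background on all arrays and Myf5 on none. Myod1 fell by 1.95, Des fell by 1.35 and Cdh15 fell by 0.86, the latter with its call lost without control replicate 4 (-0.84) and with the replicate block or the slide row as a block (-0.86 and -0.85). Pax7 changed by 0.02 and was not called, but was called higher under cyclic loess (0.39), in the normalized values of the authors (0.37) and without the mask (0.36). No change is given for Myf5, which was below that limit in both groups. Summed over all 5 genes without masking, the log2 level was 15.75 to 15.80 in controls and 14.35 to 15.09 after silencing. Of the muscle differentiation markers, Actc1, Mymk and Acta1 fell, with changes of -2.50, -2.04 and -1.88, while Myog (0.13), Tnnt3 (-0.26), Myh8 (-0.33), Myh3 (-0.58) and Mylpf (-0.66) were not called. The summed level of the 9 genes on the array was 13.74 to 14.11 in controls and 12.02 to 12.47 after silencing. Among 10 liver markers, Alb, Mup1, Serpina1a, Fgb and Ahsg were well above background on all silenced arrays and no control array, and Ttr on 3 silenced arrays and no control array. Apoa2 was well above background on all 8 arrays and changed by -0.15 without a call. Cyp2e1 rose by 1.14 (limma adjusted p 0.0493), a call lost without any 1 array other than silenced replicate 4. The summed liver level was 9.86 to 10.77 in controls and 12.23 to 12.55 after silencing, and Apoa1 and Tat were well above background on no array. Their part in the values of the immediate early factors was not tested. Of the reference genes, none was called by its brightest probe, with changes of -0.33 for Tbp, -0.21 for Txn1 and 0.17 for B2m, though other probes of Tbp changed by -1.59 and -0.94 and were called. B2m was called higher in the normalized values of the authors (0.34) and without the mask (0.38).

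Promoter windows are shown for Fos, Jun, Junb and Fosb as examples of Fos and Jun family members. They were chosen after the values were seen, none of these genes was called, and the probes of Junb differed in sign. RefSeq windows of 300 bases, 250 before and 50 after a start, matched 7 of the 10 genes in build GRCm38.p6. Fosl1, Egr1 and Ier2 were not among them. The 250 bases before the start are shown 5′ to 3′ on the gene's strand. Capitals mark the short element TGACG, the variant site TGACATCA, the box CCAAT, the box TATAAA and the EGR motif GCGGGGGCG, searched on both strands.
Fos, chr12:85473640-85473889, plus strand: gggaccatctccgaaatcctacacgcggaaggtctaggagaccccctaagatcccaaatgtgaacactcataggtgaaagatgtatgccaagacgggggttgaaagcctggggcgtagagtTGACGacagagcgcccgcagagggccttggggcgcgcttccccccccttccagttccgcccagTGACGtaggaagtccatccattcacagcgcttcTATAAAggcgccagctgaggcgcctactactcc
Jun, chr4:95052223-95052472, minus strand: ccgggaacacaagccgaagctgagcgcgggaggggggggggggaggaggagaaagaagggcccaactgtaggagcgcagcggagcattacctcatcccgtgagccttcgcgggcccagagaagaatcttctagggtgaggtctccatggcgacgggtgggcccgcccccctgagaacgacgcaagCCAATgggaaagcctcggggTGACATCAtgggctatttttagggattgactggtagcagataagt
Junb, chr8:84978749-84978998, minus strand: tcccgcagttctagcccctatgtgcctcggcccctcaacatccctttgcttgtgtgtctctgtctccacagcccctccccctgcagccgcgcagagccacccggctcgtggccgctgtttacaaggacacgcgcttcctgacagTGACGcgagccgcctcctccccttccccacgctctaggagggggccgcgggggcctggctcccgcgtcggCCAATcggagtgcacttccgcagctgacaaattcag
Fosb, chr7:19310046-19310295, minus strand: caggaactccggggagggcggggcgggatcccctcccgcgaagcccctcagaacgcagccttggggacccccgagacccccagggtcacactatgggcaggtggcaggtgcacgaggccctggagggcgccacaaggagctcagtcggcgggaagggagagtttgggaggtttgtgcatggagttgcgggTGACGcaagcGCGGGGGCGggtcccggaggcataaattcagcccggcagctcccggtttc

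TGACG, the core of the cyclic AMP response element, lay 129 and 66 bases before the start of Fos, 106 before Junb and 60 before Fosb, and it was found in 20.8% of 32851 windows. TGACATCA, the variant site described for Jun, lay 45 bases before its start and in 3.62% of windows. The full AP-1 site TGAGTCA and the full element TGACGTCA were found in none of the 7 members' windows, against 5.20% and 1.79% of all windows. CCAAT lay 65 bases before Jun and 36 before Junb, with 37.4% of windows holding it. TATAAA lay 33 bases before Fos, with 13.6% of windows, and GCGGGGGCG lay 50 before Fosb, with 2.91%. Beyond the windows shown, Egr2 also held TGACG and CCAAT and Fosl2 held GCGGGGGCG, while Junb held TATAAA in the bases after its start. GCGTGGGCG was searched too and found in none of these windows, against 0.612% of all windows, and GGGCGG was found for Jun, Fosl2, Fosb, Egr2 and Fos and in 35.7% of windows. The CArG box, to which serum response factor binds, was found for Egr2 among the 7 genes and in 1.63% of windows. TGACG is part of TGACGTCA, and any such match is a description of letters in the window and not a site shown to be bound.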

How the data were processed

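RNA of 8 cultures was labelled with Cy3 and hybridised to 1-colour Agilent arrays on 1 slide, read in 1 scan. The scanner files deposited by the authors hold processed intensity on a linear scale, background-subtracted by Feature Extraction (version 12.0.0.7 per the file headers, 10.7.3.1 in the submitters' processing notes) and not scaled between arrays. The authors' series table holds intensity values with a median of 52.9 on every array. Flags (score of 0 or 1 for positive and significant, well above background and outlying spots) also came from the deposited files.

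From the deposited intensities, log2 values were computed with spots not positive and significant masked, as in the study's methods, and control spots and outlier flags left out. They were quantile normalized, spots of a probe were averaged, and probes with at least 3 of 4 values per group (28649) entered a linear model in limma 3.58.1 under R 4.3.3 (lmFit, then eBayes) with group as the only term, Benjamini-Hochberg over all probes at 0.05. Limma was chosen here. A gene stands for its brightest probe. Single probes had an exact two-sided permutation test over 70 splits. Named genes are all members with every probe, and in the other lists up to 4 called genes with the largest change, no overlap and detection in a group, plus every myoblast marker and reference gene. Others were named after their values were seen. The members, lists and tests were chosen with earlier results of these data known.

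Of 16 member probes, 14 matched RefSeq, all with the same symbol. The 4 replicates per group are labelled biological, and p-values measure the spread between them. The main model did not pair arrays by replicate number, and the labels do not say whether they were paired. Alternatives tried were cyclic loess, scaling by the 75th percentile, normexp (offset 50), the series table, no mask, a stricter mask, outlier flags unused, complete probes, replicate number or slide row as a block, a robust trended prior, the methods' t-test (unequal variance, two-tailed, as stated for the array values after Pvt1 down-regulation, with Benjamini-Hochberg adjustment added here), leaving out each array, and, for genes, the mean of all probes or the probe nearest the 3′ end. Leaving out control replicate 3 and silenced replicate 4 together was added after seeing the data. The number of arrays limits precision. Figures were drawn with matplotlib 3.10.9.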

Additional observations from a re-analysis of the deposited data

Results flagged for a closer look

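Values were looked at within each group of 4 arrays for a lowest or highest array far from the other 3, a rule that chance meets in about 1 of 20 groups. It was met in 10 of 121 groups, 6 times by silenced replicate 4 and 4 times by control replicate 3, and by no other array.

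Among the members, the brightest Jund probe was at 12.36 on silenced replicate 4 and between 14.51 and 14.95 on the other silenced arrays. Ier2 was at 9.07 on control replicate 3 and between 11.53 and 11.99 on the other controls. Control replicate 3 was also low for Mafk (10.30, against 10.81 to 10.91) and Myod1 (12.81, against 13.57 to 13.66), and its mean correlation with the other controls was 0.96, against 0.982 to 0.983. Silenced replicate 4 read 6.72 for Pax7, where the other silenced arrays read 7.89 to 8.0. For Txn1 it read 14.82, with 15.16 to 15.21 on the others, and for B2m 14.21, with 14.91 to 14.94. Its positive and significant spots were also the fewest (51.6%, against 59.8% to 61.0%), as were those well above background (36.8%, against 42.6% to 43.2%). The part of the array in each of these values was not tested.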

How the results depend on the processing

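The change of Pvt1 (-3.12 to -2.69 with single arrays left out) and the fall of Fosl1 held under every alternative that gave a value. For Pvt1 the series table gave none. Member probes called higher and lower, and member genes in the same order, were 3, 2, 3 and 2 with the 75th percentile shift, 3, 1, 3 and 1 with cyclic loess, 1, 2, 1 and 1 with normexp, and 3, 2, 3 and 1 with the series table and without the mask. They were 0, 2, 0 and 2 with spots well above background only and with complete probes, 2, 1, 2 and 1 with the robust trended prior, 2, 2, 2 and 2 with the unadjusted t-test, and 3, 5, 3 and 4 with control replicate 3 and silenced replicate 4 left out together. With single arrays left out they ranged from 0 to 3, 1 to 4, 0 to 3 and 1 to 3. The shares of all genes called higher and lower were 10.3% and 17.4% with the 75th percentile shift, 24.4% and 13.5% with cyclic loess, 8.0% and 14.6% with normexp, 22.6% and 11.5% with the series table, 21.9% and 10.3% without the mask, 7.55% and 18.7% with spots well above background only, 7.18% and 14.3% with complete probes, 9.21% and 14.9% with the robust trended prior, 11% and 18.6% with the unadjusted t-test, and 25.7% and 17.6% without both arrays. All probes called numbered 10674 with cyclic loess, 3106 with the slide row as a block, 3420 with the adjusted t-test, 12192 without both arrays and 3709 to 8758 with single arrays left out.

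The labels do not say whether arrays with the same replicate number were paired. Correlations of same-numbered deviations were -0.04, 0.19, 0.22 and 0.06. Control replicates 2 and 3 correlated best with the silenced array of their own number, and control replicates 1 and 4 with another. Such weak correlations cannot decide whether the arrays were paired. With the replicate block 5017 probes were called, and 2 member probes lower, Fosl1 and the 5′ probe of Junb (-2.13), whose call it added. Signs turned for values that were never called with that sign. Egr2 was -0.028 with the 75th percentile shift, -0.019 with spots well above background only and -0.16 to 0.33 with single arrays left out. Ier2 was 0.13 with cyclic loess, 0.11 with the series table, 0.12 without the mask and -0.75 to 0.22 with single arrays left out. The 5′ probe of Jund was -0.079 with the slide row as a block, -0.27 without both arrays and -0.34 to 0.33 with single arrays left out. Pax7 was -0.066 with the 75th percentile shift, -0.081 with spots well above background only and -0.10 to 0.33 with single arrays left out. The cause was not tested. The dim probes of Fos, Fosb and Fosl2 and the 5′ probe of Junb are limited by their signal over background.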
